A study of Homo sapiens with 38 samples.

Results

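RNA levels after 30 days of culture were compared with those after 4 days in RKO cells, an established human colorectal cancer cell line, separately within each of 4 treatments. The 8 libraries used, 4 from each day, are those of the 38 samples in the series that the labels give as RNA-seq. On each day cells received DMSO, the solvent, or 2 µM of 1 of 3 inhibitors. NCD38 inhibits LSD1, the histone demethylase encoded by KDM1A, and in NCD38-β2P4 and NCD38-β2PIPP (P4_NCD38 and PIPP_NCD38 in the labels) it is joined through a linker to a pyrrole-imidazole polyamide, a small molecule that binds the minor groove of DNA. The labels give this dose for both days, while the methods text writes the day 4 dose in another unit. All cells, controls included, were exposed to 0.1% DMSO. The medium and the compounds were renewed every 5 days, an interval that the 4 day cultures did not reach, so renewal differed between the days as well. Each condition has 1 library and no source says that the cultures were separate, so the p-values given here measure only how the day difference varied over the 4 treatments. The libraries of day 4 and of day 30 also form 2 separate sets, so the length of culture and any difference between those sets cannot be told apart.

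The unit is FPKM, a count of fragments divided by the length of the transcript and by the number of mapped fragments. Of the 25594 entries in the table, 25504 have a name that occurs once, and the 10865 of these with a mean of at least 1 FPKM over the 8 libraries were compared. The day difference of a gene is its log2 ratio of FPKM + 1, day 30 over day 4, given as the mean of the 4 treatment pairs ± SE (n = 4 pairs). This SE is the moderated one of the limma fit, drawn towards a trend over all genes. It can be larger or smaller than the SE of a gene's own 4 ratios. The ratio understates the change of genes with a low FPKM. A gene is called higher or lower on day 30 where limma, fitted to all 10865 genes with the treatment as a block, gave a Benjamini-Hochberg adjusted p under 0.05. Values of single libraries are listed in the order DMSO, NCD38, NCD38-β2P4 and NCD38-β2PIPP.

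In a dividing tumour line a large share of the mRNA serves growth: ribosomal proteins and tRNA synthetases for translation, glycolysis for energy and carbon, sterol synthesis for membranes, and replication factors and mitotic kinases for division. LSD1 acts in the CoREST complex together with the histone deacetylases HDAC1 and HDAC2 and removes methyl groups from lysine 4 of histone H3. RKO is known as a mismatch repair deficient line. In bulk RNA, fewer cells with a transcript and less of it per cell cannot be told apart.

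The sum of FPKM lay between 677739 and 822230 in the 8 libraries, and the steps between low values put the depth at an estimated 12300000 to 22900000 fragments. Libraries of the same day were more alike than libraries of different days: over the genes compared, Spearman's rho was 0.902 to 0.974 for the 12 pairs within a day and 0.695 to 0.816 for the 16 pairs between days. CDX2, a transcription factor of intestinal epithelium, lay at 7.48 to 9.18 FPKM on day 30 and 10.7 to 11.6 on day 4, while the gut markers CDX1, VIL1 and KRT20 were listed at 0 throughout. The summed FPKM of 5 immune cell markers was at most 0.080, that of 4 fibroblast markers at most 0.025 and that of 3 endothelial markers at most 0.015, with PTPRC, CD3E, DCN, PECAM1 and CDH5 at 0 in all libraries. Entries of 5S ribosomal RNA made up 0.160% to 0.189% of the summed FPKM on day 30 and 0.834%, 3.47%, 5.31% and 1.43% on day 4, and 16 of the 17 such entries compared were called lower on day 30.

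Most of the expressed genome differed between the days. Higher on day 30 were 3277 genes (30.2% of those compared), and 3445 (31.7%) were lower. A ratio of at least 2-fold in each of the 4 pairs was reached upwards by 1203 genes (11.1%) and downwards by 975 (8.97%), and 7391 genes (68.0%) had the same sign in all 4 pairs. The median SE of a gene was 0.19. The 10 genes named for the largest ratios upwards (mean of at least 5 FPKM, transcript of at least 500 nt) include factors of translation initiation and ribosome assembly and 2 nuclear long non-coding RNAs. Those with the largest ratios downwards were mostly entries that resemble a more abundant transcript from elsewhere in the genome, which are described further on.

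Among the genes with a mean of at least 5 FPKM and a transcript of at least 500 nt that were past 2-fold in all pairs, the largest ratio was that of EIF3E, a subunit of the translation initiation factor eIF3, with 832, 729, 942 and 783 FPKM on day 30 and 16.3, 9.46, 20.8 and 43.3 on day 4 (log2 ratio 5.32 ± 0.32, adjusted p = 0.00040). All 4 libraries of day 30 lay far above all of day 4, and within day 4 NCD38 was lowest and NCD38-β2PIPP highest. NOP58, a core protein of box C/D small nucleolar ribonucleoproteins, showed the same order, with 95.4, 98.4, 112 and 101 FPKM on day 30 and 2.53, 1.51, 4.66 and 8.46 on day 4 (log2 ratio 4.46 ± 0.31, adjusted p = 0.00048). EIF5B, which joins the ribosomal subunits at the start codon, had 62.1, 53.9, 57.5 and 49.1 FPKM on day 30 and 1.07, 0.948, 1.57 and 3.21 on day 4 (log2 ratio 4.46 ± 0.26, adjusted p = 0.00040). RSL24D1, a factor of large subunit assembly, was 25.2-fold higher on the FPKM + 1 scale and SSB, the La protein that binds the ends of RNA polymerase III transcripts, 21.2-fold. The ribosome-associated chaperone DNAJC2 (4.46 ± 0.35), the nucleolar DNTTIP2 (4.29 ± 0.30) and TATDN1 (4.29 ± 0.23) complete the protein-coding genes at this end. The long non-coding RNAs were NEAT1, the scaffold of paraspeckles, with 42.6, 53.5, 46.02 and 55.4 FPKM on day 30 and 0.517, 0.203, 1.15 and 2.36 on day 4 (log2 ratio 4.72 ± 0.26, adjusted p = 0.00038), and MALAT1, a nuclear speckle RNA, with 32.3 to 45 against 0.172 to 1.92 FPKM (4.54 ± 0.30). For these 10 genes the groups of the 2 days did not overlap, which their choice by ratios past 2-fold in every pair made likely. The share of all genes without overlap was not counted, and most genes named below were also picked by their ratio. With a GC content of 34.1% to 44.1% the 10 genes lay below the median of 49.6% over all genes.

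The day difference followed the base composition of the transcripts. GC content was known for 10177 of the genes compared (93.7%), from a GENCODE transcript of the same name or, failing that, of the only gene with that name as a synonym. When these genes were divided by GC content into 10 bins of equal size, the median log2 ratio in the lowest bin (median 37.3%) was 1.48, and 85.8% of the genes were called higher and 0.786% lower. In the highest bin (median 64.7%) the median ratio was -0.75, with 5.21% called higher and 64.2% lower. Among the genes at least 2-fold higher in all pairs, 91.7% lay under 50% GC, against 7.76% of those at least 2-fold lower and 51.1% of all. Spearman's rho between ratio and GC content, across genes that are not independent, was -0.76 in the NCD38 pair, -0.66 in the pairs of DMSO and of NCD38-β2P4, and -0.45 in that of NCD38-β2PIPP. Median transcript length differed less, with 2656.5 nt for the 2-fold higher and 2896 nt for the 2-fold lower genes. GC content thus moved with the ratios, and its part in the results was not tested. Lists and parts of complexes are therefore also given after the trend of each library with GC content was subtracted, and single genes mainly where the subtraction changed a call or a direction. That left 2750 genes higher (27%) and 2897 lower (28.5%), and 577 (5.67%) and 361 (3.55%) past 2-fold in all pairs. Of the genes called higher before, 55.7% were called higher afterwards and made up 61.1% of those, and for the lower genes the shares were 55.0% and 62.9%. A total of 218 genes went from higher to lower and 22 from lower to higher.

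**Figure D1:**
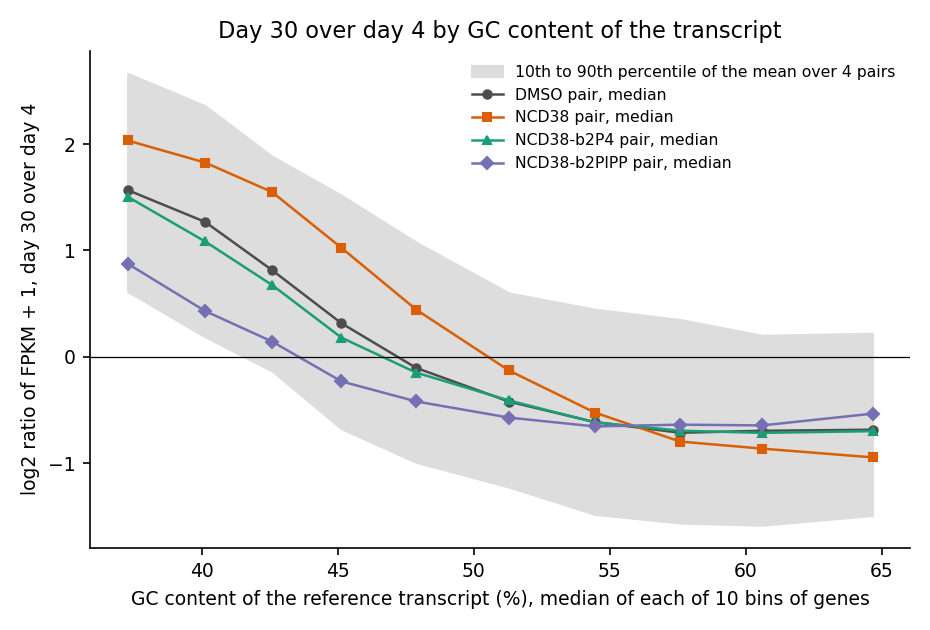
Median log2 ratio of FPKM + 1, day 30 over day 4, in 10 equal bins of genes ordered by the GC content of the reference transcript (x axis, %), for each treatment pair, with the 10th to 90th percentile of the mean over pairs as a grey band. The median of the mean over pairs, not drawn as a line, falls from 1.48 in the lowest bin to -0.04 in the fifth and -0.75 in the highest. Of the lines drawn, that of the NCD38 pair is the steepest and that of the NCD38-β2PIPP pair the flattest.

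The base composition can be read from the coding sequence of 2 genes that were both higher on day 30, PSMA3 with the trend and LIME1 against it. Shown are 120 bases of a coding exon of each, with every G and C in capitals. The first is from PSMA3, a subunit of the core particle of the proteasome (chr14:58718837-58718956, plus strand, GRCh37, 35.8% GC in this window). The second is from LIME1, an adaptor protein of lymphocyte receptor signalling and the richest in GC among the 2-fold higher genes with a mean of at least 5 FPKM (chr20:62369536-62369655, plus strand, 70.8% GC).
PSMA3: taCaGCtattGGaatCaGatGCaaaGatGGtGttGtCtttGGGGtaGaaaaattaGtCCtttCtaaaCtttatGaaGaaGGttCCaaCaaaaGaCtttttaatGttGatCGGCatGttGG
LIME1: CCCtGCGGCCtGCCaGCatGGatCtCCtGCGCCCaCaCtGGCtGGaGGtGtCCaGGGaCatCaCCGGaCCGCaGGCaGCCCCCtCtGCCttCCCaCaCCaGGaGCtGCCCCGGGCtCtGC
PSMA3 was compared with PSMD2, a subunit of the regulatory particle of the same complex, which went the other way. Across the whole transcripts the GC content was 40.4% for PSMA3 and 52.9% for PSMD2. PSMA3 had 99.3, 113, 125 and 118 FPKM on day 30 and 6.74, 4.22, 11.8 and 19.6 on day 4 (log2 ratio 3.49 ± 0.31, adjusted p = 0.00070), and PSMD2 had 184, 238, 199 and 159 on day 30 and 636, 623, 594 and 559.7 on day 4 (log2 ratio -1.64 ± 0.12, adjusted p = 0.00048). The days did not overlap for either gene, and with the trend subtracted the ratios were 2.35 and -1.13, in the same directions.

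LIME1 and PGK1, the glycolytic phosphoglycerate kinase, went against the trend: transcripts of PGK1 are low in GC (42.8%) and were lower on day 30. PGK1 had 74.6, 90.99, 87.7 and 56.8 FPKM on day 30 and 362, 363, 346 and 316 on day 4 (log2 ratio -2.17 ± 0.12, adjusted p = 0.00040), and LIME1 had 12.3, 13.7, 9.13 and 10.5 on day 30 and 2.66, 2.46, 2.84 and 3.63 on day 4 (log2 ratio 1.67 ± 0.19, adjusted p = 0.0013). Neither gene's days overlapped, and subtracting the trend moved both further from 0, to -2.93 and 2.26. The next in GC content among the higher genes were SNHG7, a host gene of small nucleolar RNAs with 448 to 578 against 207 to 229 FPKM (1.20 ± 0.09), CROCCP2 (1.39 ± 0.19), a transcribed pseudogene that resembles CROCC, and TNFRSF25, a death receptor (1.89 ± 0.16). Among the lower genes poor in GC, ATP5G3, a subunit c gene of mitochondrial ATP synthase, had 36.8 to 48.2 against 87.99 to 125 FPKM (-1.34 ± 0.13). After the subtraction the largest ratios upwards with a mean of at least 5 FPKM included, beside EIF3E, NEAT1 and MALAT1, GOLGA8A (4.29), a golgin, and PABPC1L (3.69), a poly(A)-binding protein. GOLGA8A is 98.7% identical to GOLGA8B over 91.4% of its transcript, so reads of the pair may be shared, and both were called higher.

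Gene lists were described by the number of members called and by the median over their members, beside 30.2% higher, 31.7% lower and a median of -0.02 over all genes. The counts after the GC trend was subtracted stand beside them. Leaving out 1 pair at a time moved 29 of 132 counts of higher members and 29 of 132 counts of lower members by over 1.5 times, most often without the DMSO pair (24) or the NCD38-β2P4 pair (18), and less often without the NCD38 (10) or the NCD38-β2PIPP pair (6).

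**Figure D2:**
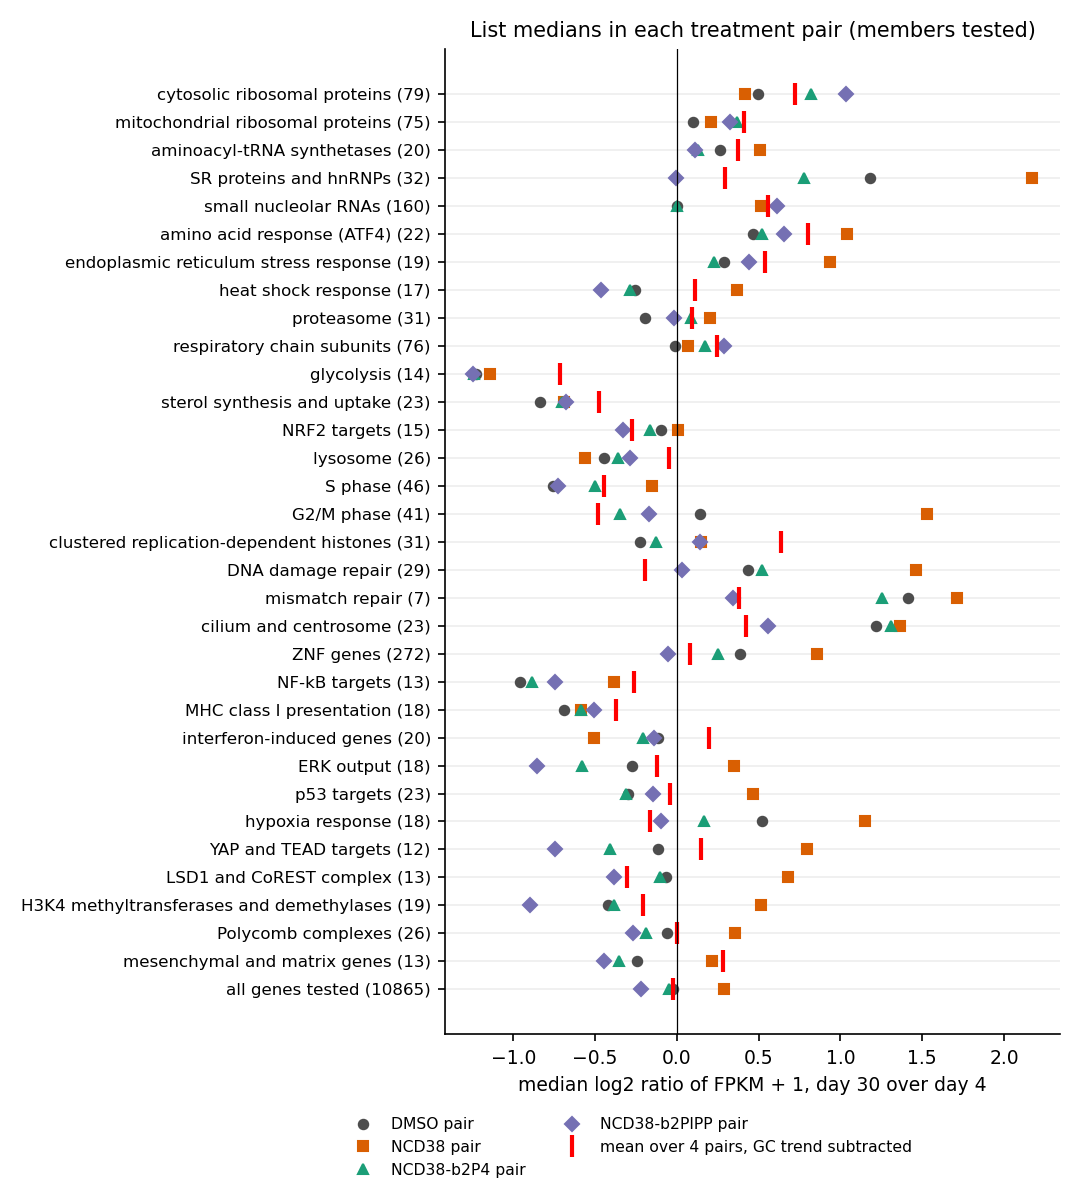
Median log2 ratio of FPKM + 1, day 30 over day 4, over the tested members of each gene list, with 1 symbol for each treatment pair and a red bar for the mean over pairs after the GC trend was subtracted (number of tested members in brackets). Ribosomal proteins lie right of 0 and glycolysis and sterol synthesis left of 0 in all 4 pairs and after the subtraction, whereas the red bars of the G2/M and DNA damage repair lists lie on the other side of 0 from their NCD38 pairs.

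Most cytosolic ribosomal proteins were higher on day 30: 44 of the 79 tested were called higher and 3 lower, with a median of 0.72 (45 higher, 1 lower and a median of 0.72 with the GC trend subtracted). Their summed FPKM made up 43.1% to 47.1% of a library on day 30 and 29.9% to 35.7% on day 4, so the 2 ranges did not overlap. The large subunit had 28 of 46 genes higher and 1 lower (median 0.85, after subtraction 29, none and 0.86). The small subunit had 16 of 31 higher and 2 lower (median 0.38, after subtraction 15, 1 and 0.62). RPS24, of the small subunit, had 4091, 4009.7, 4069 and 4114 FPKM on day 30 and 373, 161, 659.6 and 829 on day 4 (log2 ratio 3.26 ± 0.39, adjusted p = 0.0015). The day 30 libraries lay within a narrow range, while those of day 4 spread from NCD38 up to NCD38-β2PIPP. RPL17 (2.96 ± 0.26) and RPL34 (2.93 ± 0.17), both of the large subunit, followed, with 1634 to 2401 against 141 to 359.6 FPKM for RPL34. The genes called lower included RPLP0 of the ribosomal stalk (-0.99 ± 0.18, adjusted p = 0.0050) and RPS9 (-0.58 ± 0.19, adjusted p = 0.044). With the trend subtracted RPLP0 (-0.48) was no longer called and RPS9 turned to 0.13, also not called. RPS9 also lost its call with a constant prior variance, without the filter, with median-ratio scaling and without the DMSO, NCD38 or NCD38-β2P4 pair. Ribosomal protein genes have many processed pseudogenes, so their values depend on how shared reads were assigned.

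Mitochondrial ribosomal proteins went both ways, with 32 of 75 higher and 18 lower (median 0.28, after subtraction 36, 14 and 0.41). MRPL47 had 56.6, 60.2, 61.8 and 59.5 FPKM on day 30 and 4.01, 2.21, 7.49 and 11.7 on day 4 (log2 ratio 3.23 ± 0.34, adjusted p = 0.00097). MRPL37, of the same large mitochondrial subunit, went the other way, with 65.5, 71.9, 75.5 and 56.4 on day 30 and 260.0, 320.0, 234 and 210.2 on day 4 (log2 ratio -1.90 ± 0.12, adjusted p = 0.00041). Neither gene's days overlapped, and both directions held after the subtraction. Of 20 aminoacyl-tRNA synthetases, which load tRNAs with amino acids, 8 were higher and 5 lower (median 0.25, after subtraction 8 and 3 of 16 with a median of 0.38). EPRS, which charges glutamate and proline tRNAs, stood at 44.9 to 69.2 against 3.41 to 19.5 FPKM (2.67 ± 0.34), and FARSA, a subunit of the phenylalanine enzyme, at 42.4 to 50.6 against 98.7 to 148 (-1.29 ± 0.15).

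Small nucleolar RNAs guide the modification of ribosomal RNA and are shorter than the fragments that mRNA libraries are built for. Of 407 entries, 160 passed the filter. Of these, 50 were called higher (31.25%) and 12 lower (7.5%), beside 30.2% and 31.7% of all genes (46 and 17 of 147 after the subtraction). The filter was on the mean over both days, so an entry could pass it through either day alone. Its part in these counts was not tested. The pair medians were 0, 0.51, 0 and 0.61. Many entries were listed at 0 in all libraries of a day, and such a 0 may stand for a value Cufflinks could not estimate. SNORA12 was listed at 0 in all 4 libraries of day 4 and at 342, 328, 294 and 400.2 FPKM on day 30, and SCARNA14 likewise at 0 on day 4 and at 285, 380.0, 313 and 325 on day 30. SNORD36A and SNORD55 were listed at 0 on day 30, against 2889, 2239.8, 2328 and 3789 FPKM and 286, 1131, 392 and 177 FPKM on day 4. Summed over all entries, small nucleolar RNAs came to 4680.0 to 6803 FPKM on day 30 and 8011 to 10731 on day 4. SNORD36A alone made up 2239.8 to 3789 FPKM of the day 4 sums and was listed at 0 on day 30. The lower sum on day 30 therefore rests to a large part on this entry.

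Splicing regulators were higher in 16 of 32 cases. Of 32 SR proteins and hnRNPs, RNA-binding proteins that select splice sites and package pre-mRNA, 4 were lower, and the median was 1.07. These genes are poor in GC (median 41.7%), and with the trend subtracted 11 were higher and 7 lower, with a median of 0.30. The pair medians ran from -0.01 with NCD38-β2PIPP to 2.17 with NCD38. SRSF11 had 29.8, 34.2, 32.6 and 35.3 FPKM on day 30 and 2.04, 1.46, 5.61 and 7.81 on day 4 (log2 ratio 2.89 ± 0.33, adjusted p = 0.0013). TRA2A, another SR-like factor, was 5.22-fold higher (2.38 ± 0.25). PTBP1, which represses exons, was lower with 108 to 148 against 224 to 242 FPKM (-0.97 ± 0.13), and was not called after the subtraction (-0.28, adjusted p = 0.13).

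Of 22 genes of the amino acid response, targets of the transcription factor ATF4, 11 were called higher and 3 lower, with a median of 0.69. The count was 12 higher and 3 lower after the GC trend was subtracted, with a median of 0.80. DDIT3, which encodes the stress factor CHOP, had 123, 96.98, 90.2 and 105 FPKM on day 30 and 24.2, 11.3, 27.2 and 36.7 on day 4 (log2 ratio 2.12 ± 0.27, adjusted p = 0.0016). NUPR1, a stress-induced chromatin protein, had 17.2, 4.86, 9.48 and 14.2 on day 30 and 1.54, 1.71, 1.56 and 1.67 on day 4 (log2 ratio 2.13 ± 0.31, adjusted p = 0.0026). Day 30 exceeded day 4 for both in every treatment, and for NUPR1 the DMSO library was highest and the NCD38 library lowest on day 30. CEBPG, a partner of ATF4, was 7.09-fold higher (2.83 ± 0.31). The 2 members with the lowest ratios were SLC7A5, a transporter of large neutral amino acids (19.3 to 32.3 against 62.8 to 78.01 FPKM, -1.46 ± 0.17), and the transcription factor ATF5 (-1.06 ± 0.11).

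The endoplasmic reticulum stress list had 8 of 19 members higher and 1 lower (median 0.36, after subtraction 12, 3 and 0.54). HSP90B1, the HSP90 chaperone of that compartment, had 367, 291, 403 and 409.9 FPKM on day 30 and 25.4, 15.6, 45.8 and 73.7 on day 4 (log2 ratio 3.37 ± 0.29, adjusted p = 0.00063). DNAJB11, a cochaperone there, was 4.78-fold higher (2.26 ± 0.29). XBP1, the transcription factor at the head of 1 branch of this response, was the member called lower (22.8 to 30.8 against 32.2 to 43.9 FPKM, log2 ratio -0.57 ± 0.17, adjusted p = 0.029), and that call was lost on leaving out the DMSO, NCD38-β2P4 or NCD38-β2PIPP pair. Heat shock genes had no common direction, with 7 of 17 higher and 7 lower and a median of -0.31 that turned to 0.11 after the subtraction (5 higher, 2 lower). HSP90AA1, the inducible cytosolic HSP90, had 483, 471, 544 and 414 FPKM on day 30 and 22.5, 15.5, 60.5 and 137 on day 4 (log2 ratio 3.48 ± 0.54, adjusted p = 0.0032). HSPA8, the constitutive HSP70, had 369.8, 357, 447 and 214 on day 30 and 1146, 674, 1298 and 1404 on day 4 (log2 ratio -1.70 ± 0.29, adjusted p = 0.0044). The 2 chaperones therefore moved apart without any overlap between days, and did so after the subtraction as well (2.50 and -2.01). HSPE1, the mitochondrial cochaperonin, was higher (511 to 623 against 46.4 to 95.1 FPKM, 3.02 ± 0.16).

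Most glycolytic enzymes were lower on day 30. Of 14 enzymes tested, 11 were called lower and 1 higher, with a median of -1.30 and pair medians between -1.24 and -1.14. With the GC trend subtracted 10 were lower and 1 higher, with a median of -0.72. The summed FPKM of the list was 8100 to 8669 on day 30 and 11255 to 17128 on day 4. ENO1, enolase, had 613, 758, 676 and 573 FPKM on day 30 and 1884, 2513, 1833 and 1601 on day 4 (log2 ratio -1.57 ± 0.11, adjusted p = 0.00046). PGK1, shown above, was the member with the lowest ratio, and PFKL, the liver type of phosphofructokinase, had 14.04 to 19.2 against 42.1 to 68.3 (-1.51 ± 0.20). GAPDH, with 5238, 4901, 5069 and 4984 on day 30 and 6570.5, 8596, 6001 and 5168 on day 4, did not pass the test (log2 ratio -0.36 ± 0.16, adjusted p = 0.10), and its ratio was 0.30 after the subtraction. The lactate dehydrogenase genes differed from each other. LDHB was the member called higher, with 764, 749.7, 941 and 803 FPKM on day 30 and 229, 89.7, 392 and 533 on day 4 (log2 ratio 1.66 ± 0.39, adjusted p = 0.014), a call lost without the DMSO pair, whereas LDHA, at 149 to 209 and 153 to 254, was not called (log2 ratio -0.32 ± 0.22, adjusted p = 0.25) until the trend was subtracted (-1.27, adjusted p = 0.0014).

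In the list of NRF2 targets 4 of 15 members were called lower (26.7%, against 31.7% of all genes) and 1 higher, with a median of -0.12 (7, 2 and -0.28 after the subtraction). Without the filter on low FPKM the median turned to 0.014. Among its members TKT, a transketolase of the pentose phosphate pathway, had 175, 185, 176 and 148 FPKM on day 30 and 429, 554, 389.9 and 342 on day 4 (log2 ratio -1.30 ± 0.11, adjusted p = 0.00067). PGD, which acts on phosphogluconate in the same pathway, had 96.2, 106, 105 and 89.3 and 242, 259, 231 and 207 (log2 ratio -1.23 ± 0.09, adjusted p = 0.00053). Neither gene overlapped between the days, and both stayed lower after the subtraction.

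Sterol synthesis and uptake genes, which SREBP transcription factors control, had 11 of 23 members lower and 2 higher, with a median of -0.77 (13 lower, 1 higher and -0.48 with the GC trend subtracted). SREBF2, which encodes the SREBP that governs sterol genes, had 14.2, 18.03, 12.97 and 13.9 FPKM on day 30 and 67.1, 65.8, 65.7 and 66.6 on day 4 (log2 ratio -2.10 ± 0.12, adjusted p = 0.00040). On day 30 the NCD38 library was the highest of the 4, and still below every library of day 4. IDI1, an isomerase of the mevalonate pathway, went the other way (16.96 to 23.3 against 2.17 to 8.05 FPKM, 1.89 ± 0.33). After the subtraction its ratio was 0.46, still called higher (adjusted p = 0.050, just under the threshold).

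**Figure D3:**
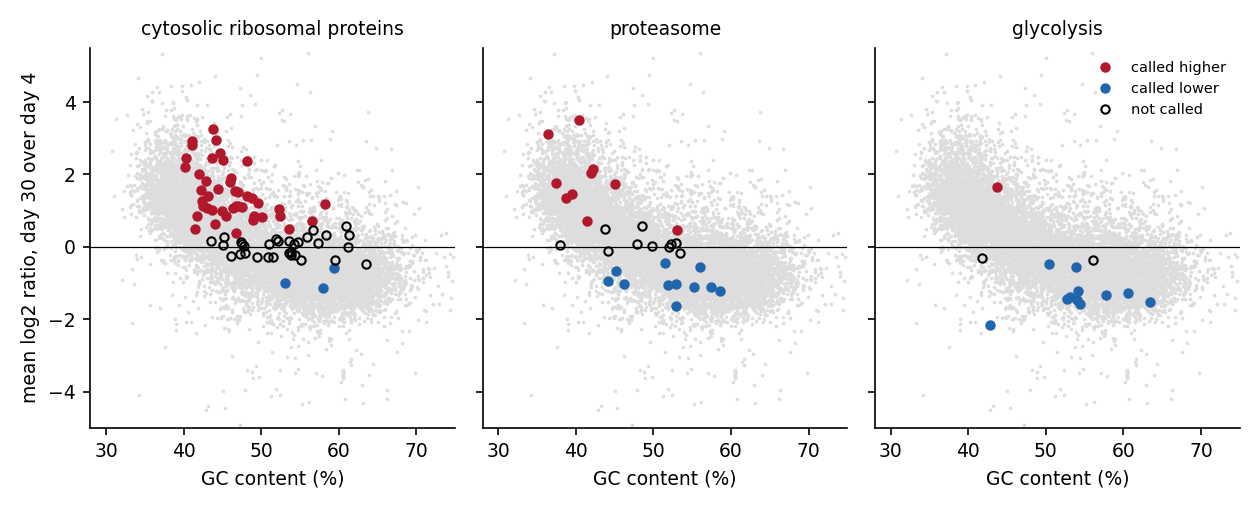
Mean log2 ratio of FPKM + 1, day 30 over day 4 (y axis), against the GC content of the reference transcript (x axis, %) for the members of 3 lists over all genes compared (grey points). Filled red and blue points mark members called higher and lower, open points those not called. Ribosomal proteins and proteasome subunits descend with GC content, and 11 of the 14 glycolytic enzymes lie below 0 and are called lower, PGK1 at 42.8% GC among them.

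Subunits of the proteasome went in both directions, in shares near those over all genes. Of its 31 subunits 10 were higher (32.3%) and 11 lower (35.5%), beside 30.2% and 31.7% of all genes compared. The median was 0.05 (9 higher, 11 lower and 0.09 after subtraction). Beside PSMA3, the subunits with the largest ratios were the ATPase PSMC6 (31.2 to 41.6 against 1.11 to 8.74 FPKM, 3.11 ± 0.42) and the deubiquitinase PSMD14 (2.16 ± 0.43). PSMD3 of the regulatory particle was lower, as PSMD2 was (45.9 to 62.2 against 110.2 to 143 FPKM, -1.21 ± 0.09). All 4 kept their direction after the GC trend was subtracted. By part of the complex, 4 of 14 core subunits were higher and 4 lower (2 and 5 after subtraction), 2 of 6 ATPases higher and 1 lower (4 and none), and 4 of 11 other regulatory subunits higher and 6 lower (3 and 6). The balance of the whole complex turned with scaling, to 11 higher and 9 lower with median-ratio scaling and 14 and 8 with quantile normalization.

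The respiratory chain was divided likewise, with 26 of 76 subunits higher (34.2%) and 21 lower (27.6%), also near the shares over all genes. Its median was 0.12 (27 higher, 21 lower and 0.24 after subtraction). NDUFA5 of complex I had 28.7, 27.6, 33.2 and 29.4 FPKM on day 30 and 0.748, 0.467, 1.75 and 2.29 on day 4 (log2 ratio 3.80 ± 0.22, adjusted p = 0.00040). NDUFS7, of the same complex, had 84.9, 90.7, 87.4 and 85.04 on day 30 and 238, 332, 209.6 and 191 on day 4 (log2 ratio -1.44 ± 0.15, adjusted p = 0.00093). In complex III, UQCRB was higher (100.3 to 118 against 5.45 to 14.1 FPKM, 3.53 ± 0.20) and UQCRC1 lower (111 to 125 against 255 to 437, -1.42 ± 0.14). Complex I as a whole had 11 of 38 subunits higher and 11 lower (15 and 11 after subtraction). ATP synthase had 7 of 15 higher and 3 lower, a balance that turned to 4 and 5 after subtraction. The 4 subunits with values here kept their direction after the subtraction, with GC contents of 34.6% and 39.1% for the higher and 66.9% and 58.3% for the lower ones.

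Lysosomal genes had 12 of 26 members lower and 5 higher (median -0.37, after subtraction 9 lower, 4 higher and -0.05). ATP6V0D1, a subunit of the proton pump that acidifies the lysosome, had 31.6, 33.7, 33.9 and 26.3 FPKM on day 30 and 174, 241, 167 and 142 on day 4 (log2 ratio -2.47 ± 0.12, adjusted p = 0.00034). The protease gene CTSD was lower too (46.7 to 62.6 against 146 to 243, -1.72 ± 0.16).

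Most replication genes were lower on day 30. In the S phase list 25 of 46 genes were lower and 9 higher, with a median of -0.66 (27 lower, 3 higher and -0.45 with the GC trend subtracted). Of the MCM2 to MCM7 subunits of the replicative helicase, 5 of 6 were lower, and all 6 after the subtraction. Of the 4 subunits of the GINS complex, which joins that helicase, 3 were lower, and all 4 after the subtraction. MCM7 had 70.02, 68.5, 81.6 and 76.1 FPKM on day 30 and 238, 268, 222 and 214 on day 4 (log2 ratio -1.65 ± 0.13, adjusted p = 0.00054). MCM2 (-1.69 ± 0.17) and the polymerase subunit POLA2 (-1.62 ± 0.15) gave similar ratios. The days did not overlap for MCM7, and the largest fall was in the NCD38 pair for all 3 genes. RFC4, a subunit of the clamp loader, was higher (20.05 to 27.7 against 4.88 to 12.5 FPKM, 1.32 ± 0.21).

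Mitotic genes divided. In the G2/M list 14 of 41 genes were higher and 10 lower with a median of 0.20, which turned to -0.48 with 6 higher and 20 lower once the GC trend was subtracted. Without the NCD38 pair it turned as well, to -0.24 with 11 higher and 20 lower, and at a mean of at least 10 FPKM to -0.98 with 2 higher and 10 lower. Without the DMSO or the NCD38-β2P4 pair 7 were higher and 7 lower. The pair medians ran from -0.35 with NCD38-β2P4 to 1.53 with NCD38. PLK1, a kinase of spindle assembly, had 4.33, 15.8, 5.83 and 5.22 FPKM on day 30 and 81.6, 110.2, 84.5 and 74.6 on day 4 (log2 ratio -3.48 ± 0.22, adjusted p = 0.00041). BIRC5 had 9.65, 20.01, 9.23 and 11.7 on day 30 and 66.4, 56.8, 53.3 and 46.8 on day 4 (log2 ratio -2.11 ± 0.22, adjusted p = 0.0010), and its partner in the chromosomal passenger complex, CDCA8, had 6.85, 15.9, 8.67 and 9.32 and 45.3, 38.6, 45.9 and 40.5 (log2 ratio -2.02 ± 0.24, adjusted p = 0.0013). These 3 genes were lower in every treatment, with the NCD38 library of day 30 the highest of that day. CDK1, the kinase that drives entry into mitosis, had 14.9, 24.3, 21.1 and 21.8 on day 30 and 1.22, 0.695, 1.80 and 4.18 on day 4 (log2 ratio 2.97 ± 0.30, adjusted p = 0.00091). The kinetochore gene NUF2 (2.83 ± 0.27) and the condensin gene NCAPG (2.74 ± 0.20) were higher as well. All 6 kept their direction after the subtraction, and their GC contents were 35.4%, 38.8% and 38.7% for the higher and 57.1%, 51.2% and 51.2% for the lower.

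Entries named as tubulins, the subunits of microtubules, were lower without exception in the alpha family, where 7 of 7 were called lower (median -1.42). Of the beta family 8 of 9 entries were lower (median -1.27). The beta entries include TUBBP5, a pseudogene by its name, which TUBB8 resembles with 96.9% identity over 85.3% of its transcript. With the GC trend subtracted, 6 of 7 alpha tubulins were lower, and 5 of 8 beta tubulins lower and 1 higher. TUBA1B fell from 891 to 1260.5 FPKM on day 4 to 63.3 to 128 on day 30, and TUBA1C from 859 to 1194 to 369 to 525. Members of this family resemble each other closely, and the value of each depends on how shared reads were divided.

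Of 31 clustered histone genes tested, 9 were higher and 5 lower (median -0.05, after subtraction 14 of 28 higher, none lower and 0.64). The balance turned to 9 higher and 11 lower with quantile normalization, and the median lay between 0.0058 and 0.026 without the DMSO, the NCD38-β2P4 or the NCD38-β2PIPP pair. HIST1H2BD, an H2B gene, had 13.6 to 20.4 FPKM on day 30 against 3.33 to 10.1 on day 4 (log2 ratio 1.31 ± 0.32, adjusted p = 0.016) and HIST1H4J, an H4 gene, 30.4 to 38.6 against 9.03 to 21.98 (log2 ratio 1.11 ± 0.25, adjusted p = 0.012). The call of HIST1H2BD was lost without the DMSO pair and that of HIST1H4J without the NCD38-β2P4 pair. Most mRNAs of this kind lack a poly(A) tail, so libraries selected for poly(A) hold only part of them.

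Repair genes were higher on balance before, but not after, the subtraction. Of 29 DNA damage repair genes 14 were higher and 6 lower with a median of 0.55, and with the trend subtracted 5 were higher and 8 lower with a median of -0.20. NBN, of the MRN complex that senses breaks, had 11.9 to 15.4 against 0.506 to 3.13 FPKM (2.67 ± 0.30), and the helicase RECQL was higher also (2.57 ± 0.35). FANCG of the Fanconi anaemia core complex was lower, with 8.51 to 10.8 against 21.3 to 37.6 FPKM (-1.45 ± 0.19). These 3 kept their direction after the subtraction. Of 7 mismatch repair genes tested, 4 were higher and none lower (3 higher and 1 lower after the subtraction). PMS1, a MutL homologue, had 4.23 to 5.98 against 0.173 to 0.618 FPKM (2.17 ± 0.15). Its levels did not overlap between the days.

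Among signalling outputs, NF-kB targets had 8 of 13 members lower and 2 higher (median -0.85, after subtraction 5, 2 and -0.26). NFKB1, a subunit of the factor itself, had 5.54, 8.07, 6.91 and 4.15 FPKM on day 30 and 18.9, 10.9, 23.04 and 25.8 on day 4 (log2 ratio -1.49 ± 0.33, adjusted p = 0.011), with the smallest fall in the NCD38 pair, and the call was lost without the DMSO or the NCD38-β2P4 pair. RELB, another subunit, had 7.81 to 8.97 against 19.8 to 29.2 (-1.33 ± 0.13). Genes of antigen presentation by MHC class I had 9 of 18 members lower and 1 higher (median -0.63, after subtraction 6, 2 and -0.37). HLA-C, a heavy chain, had 176, 235, 199 and 247 FPKM on day 30 and 613, 699, 608 and 511 on day 4 (log2 ratio -1.50 ± 0.15, adjusted p = 0.00087), and the peptide transporter subunit TAP2 8.63, 15.5, 8.79 and 11.4 and 39.8, 37.5, 39.6 and 38.5 (log2 ratio -1.76 ± 0.18, adjusted p = 0.00098). B2M, the light chain, stood at 393 to 645 and 139 to 482 and was not called (log2 ratio 0.81 ± 0.36, adjusted p = 0.10). HLA genes resemble each other, so the value of each depends on how shared reads were divided.

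Of 20 interferon-induced genes, 8 were lower and 4 higher with a median of -0.21, which turned to 0.20 with 4 lower and 6 higher after the subtraction. IFITM1 was lower (17.8 to 24.3 against 38.5 to 58.99 FPKM, -1.19 ± 0.11) and IFIT5 higher (5.56 to 6.59 against 0.273 to 1.54, 2.05 ± 0.22). Genes that report ERK signalling had 6 of 18 members lower and 1 higher. The share lower, 33.3%, was near the 31.7% over all genes. The median was -0.28 (6 lower, 3 higher and -0.12 after subtraction). EGR1, an immediate early gene, had 18.8, 40.8, 23.1 and 18.9 FPKM on day 30 and 95.1, 58.9, 107 and 99.9 on day 4 (log2 ratio -1.82 ± 0.34, adjusted p = 0.0058), and the ETS factor ETV4 16.9 to 26.7 against 53.8 to 78.4 (-1.62 ± 0.10). The phosphatase gene DUSP6, at 45.7, 42.5, 44.8 and 45.1 on day 30 and 20.1, 7.77, 33.1 and 39.8 on day 4, was not called (log2 ratio 1.01 ± 0.37, adjusted p = 0.057), and was after the subtraction (0.88, adjusted p = 0.015).

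The p53 targets were balanced, with 9 of 23 higher and 9 lower (median -0.29, after subtraction 6, 5 and -0.04). CDKN1A, the cell cycle inhibitor p21, had 58.4, 61.9, 52.5 and 56.03 FPKM on day 30 and 191, 189, 176 and 153 on day 4 (log2 ratio -1.61 ± 0.10, adjusted p = 0.00041), and CCNG1, cyclin G1, went the other way (26.8 to 45.9 against 2.62 to 12.3, 2.38 ± 0.31). Of 12 YAP and TEAD targets, 2 were higher and 2 lower, with a median of -0.12 that turned to 0.15 after the subtraction and to 0.031 without the NCD38-β2PIPP pair. The receptor kinase gene AXL had 45.1, 57.6, 49.2 and 47.00 on day 30 and 199.6, 187, 205 and 202 on day 4 (log2 ratio -1.98 ± 0.12, adjusted p = 0.00040), and CYR61, a matrix-associated signalling protein, 99.1, 151, 87.8 and 103 and 51.8, 37, 58.2 and 58.97 (log2 ratio 1.08 ± 0.25, adjusted p = 0.014), a call lost without the DMSO pair. AXL was lower and CYR61 higher with no overlap between days, and both directions held after the subtraction (3 of the list higher, 2 lower). The hypoxia list had 7 of 18 higher and 6 lower, with a median of 0.46 that turned to -0.16 after the subtraction (7 higher, 7 lower) and to -0.90 at a mean of at least 10 FPKM (none higher, 5 lower), while without the NCD38 pair 6 were higher and 7 lower.

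Of the target of the inhibitors, KDM1A, the libraries held 41.97, 46.1, 45.6 and 39.4 FPKM on day 30 and 56.6, 38.01, 69.9 and 72.1 on day 4, with a ratio above 0 in the NCD38 pair only, and it was not called (log2 ratio -0.40 ± 0.20, adjusted p = 0.13). In the list of LSD1 and CoREST complex genes 3 of 13 were higher (23.1%) and 4 lower (30.8%), beside 30.2% and 31.7% of all genes. The median was -0.04 (2 higher, 4 lower and -0.31 after subtraction). That median turned to 0.037 without the NCD38-β2P4 pair and to 0.21 without the NCD38-β2PIPP pair, and 4 were higher and 3 lower with median-ratio scaling. HDAC2 had 10.7, 11.9, 12.5 and 10.9 on day 30 and 1.11, 0.649, 2.14 and 3.57 on day 4 (log2 ratio 2.23 ± 0.28, adjusted p = 0.0017), and RCOR2, a CoREST paralogue, 2.65 to 3.96 against 6.62 to 9.49 (-1.02 ± 0.14). Of 19 writers and erasers of H3K4 methylation and their cofactors, 3 were higher (15.8%) and 6 lower (31.6%). The share lower was thus near that over all genes. The median was -0.29 (after subtraction 2 and 5 of 17 with a median of -0.21). PSIP1, a chromatin reader, was higher (37.2 to 45.2 against 4.03 to 13.9 FPKM, 2.26 ± 0.28) and KDM5C, a demethylase of H3K4, lower (13.8 to 20.3 against 30.8 to 39.7, -1.06 ± 0.17), the latter not called after the subtraction (-0.37). Polycomb genes had 7 of 26 higher and 11 lower (median -0.02, after subtraction 6, 7 and 0.0027). This median too changed sign without the NCD38-β2P4 (0.047) or the NCD38-β2PIPP pair (0.14), with median-ratio scaling (0.0012) or quantile normalization (0.093), and without the filter (0.23). SUZ12, of the complex that methylates H3K27, was higher (6.55 to 8.10 against 0.400 to 2.64, 1.96 ± 0.28), its accessory protein PHF19 lower (49.1 to 74.4 against 141 to 187, -1.56 ± 0.12) and CBX2, a reader of that mark, lower (5.11, 5.23, 5.12 and 5.16 against 15.4, 16.4, 15.00 and 15.2, log2 ratio -1.42 ± 0.13, adjusted p = 0.00070).

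Of 22 colon epithelium genes only 5 passed the filter, and 1 was called higher and none lower (4 and none after the subtraction). That was EPCAM, the epithelial adhesion molecule, with 3.94, 5.04, 6.30 and 6.53 FPKM on day 30 and 0.280, 0.0922, 0.815 and 0.867 on day 4 (log2 ratio 2.11 ± 0.16, adjusted p = 0.00055). EPCAM was low on both days, without overlap. KRT18, at 121, 99.3, 117 and 108 and 90.04, 121, 87.6 and 76.2, was not called (log2 ratio 0.26 ± 0.16, adjusted p = 0.21) but was called higher after the subtraction (0.96). CDX2 was not called (log2 ratio -0.36 ± 0.14, adjusted p = 0.065), and its ratio turned to 0.35, called higher, after the subtraction. VIM, vimentin, stood at 4.04 to 4.82 and 2.17 to 5.88 (log2 ratio 0.08 ± 0.23, adjusted p = 0.79), with a ratio of -0.31 under quantile normalization and 0.66 after the subtraction. Of the longer lists of other cell types, CD68 (-1.67, called lower, and -1.02 and still lower after the subtraction) was the single immune gene and ACTA2 (-0.08, after subtraction 0.34, not called in either) the single fibroblast or endothelial gene to pass the filter. Among 13 mesenchymal and matrix genes, 3 were higher and 5 lower (median -0.16, after subtraction 5, 4 and 0.28). ZEB1, a repressor of epithelial genes, had 19.03, 20.6, 20.8 and 16.2 on day 30 and 1.36, 0.854, 2.004 and 5.32 on day 4 (log2 ratio 2.73 ± 0.36, adjusted p = 0.0018), and the laminin chain LAMB1 27.2 to 39.4 against 5.59 to 18.2 (1.63 ± 0.20). The membrane protease MMP14 was lower (3.39 to 6.06 against 16.8 to 19.2, -1.76 ± 0.18). ITGB1, integrin beta 1, was higher (122 to 193 against 19.4 to 134, log2 ratio 1.53 ± 0.48, adjusted p = 0.037), but its days overlapped and the call was lost after the subtraction (0.28) and without the DMSO pair, the NCD38-β2P4 pair or the filter on low FPKM.

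Genes of the cilium and centrosome, which build the sensory antenna of the cell, had 15 of 23 members higher and 1 lower, with a median of 1.10 and pair medians between 0.56 and 1.36. Their median GC content was 41.3%, and with the trend subtracted 9 were higher and 3 lower, with a median of 0.43. IFT57, of the intraflagellar transport machinery, had 13.4, 11.3, 14.9 and 14.1 FPKM on day 30 and 1.08, 0.536, 1.96 and 3.06 on day 4 (log2 ratio 2.53 ± 0.23, adjusted p = 0.00070). OFD1, a centriolar protein, had 7.16, 7.01, 7.06 and 6.90 and 0.330, 0.132, 0.400 and 1.23 (log2 ratio 2.45 ± 0.21, adjusted p = 0.00064). Of 272 ZNF genes, most of which encode zinc finger repressors, 119 were higher and 68 lower (median 0.37, after subtraction 81 of 270, 61 and 0.08). With quantile normalization 101 were higher and 101 lower, and at a mean of at least 10 FPKM 10 were higher and 23 lower. At their ends stood ZNF300 (12.9 to 18.7 against 0.0809 to 2.05 FPKM, 3.25 ± 0.22) and ZNF496 (3.38 to 4.92 against 21.5 to 23.98, -2.20 ± 0.14).

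At the lower end of the ratios, within the same limits of 5 FPKM and 500 nt, stood mostly entries that resemble another, more abundant transcript. Of the genes compared, 447 have a similar transcript at another locus (at least 90% identity over at least 50% of their length). Where that copy was at least 10 times as abundant (63 entries), 44 (69.8%) were called lower and 7 higher, with a median of -1.41, and 26 (41.3%) were lower at least 2-fold in all pairs. After the GC trend was subtracted 39 were lower and 7 higher. The filter was on the mean over both days, so an entry could pass it through either day alone. Minor copies low on both days were left out, and the part of the filter in these counts was not tested. Where no copy was more abundant (189 entries), 45 were lower and 63 higher (37 and 77 after subtraction). Of 36 read-through entries, which span 2 neighbouring genes, 20 were lower and 7 higher (14 and 9 after subtraction). Of 117 pseudogenes 49 were lower and 33 higher, and this turned to 43 lower and 48 higher after subtraction. Fragments of such entries can be assigned to the relative as well, so their levels are uncertain on both days.

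One such entry was RPL13AP6, a pseudogene of RPL13A without introns. To show how few bases separate them, 120 bases from the coding sequence of RPL13A (gene at chr19:49990865-49995565, plus strand, GRCh37, starting at base 245 of the coding sequence) stand beside the matching bases of RPL13AP6 (chr10:112696628-112696747, minus strand). Capitals mark the 7 bases that differ, and the other 113 match.
RPL13A: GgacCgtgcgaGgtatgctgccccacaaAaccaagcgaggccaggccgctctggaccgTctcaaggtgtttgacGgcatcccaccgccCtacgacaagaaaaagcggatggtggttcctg
RPL13AP6: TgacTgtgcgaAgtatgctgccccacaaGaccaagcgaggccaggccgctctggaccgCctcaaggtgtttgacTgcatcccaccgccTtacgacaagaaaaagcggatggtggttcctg
RPL13AP6 had 0.365, 0.142, 0.545 and 0.811 FPKM on day 30 and 87.02, 79.9, 68.02 and 64.8 on day 4 (log2 ratio -5.71 ± 0.21, adjusted p = 0.00022). RPL13A itself had 4156 to 4703 on day 30 and 4172 to 5896 on day 4 and was not called. The pseudogene thus stood at 0.00342% to 0.0176% of its parent's FPKM on day 30 and at a nearly constant 1.43% to 1.58% on day 4.

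Other entries with a relative are given in the same way. RPL39L, a paralogue of RPL39, had 0.0506, 0.329, 0.443 and 0.402 FPKM on day 30 and 89.7, 59.8, 88.7 and 84.2 on day 4 (log2 ratio -5.96 ± 0.19, adjusted p = 0.00016), while RPL39 was called higher. RPL13AP3 lay at 0.00186% to 0.00531% of RPL13A on day 30 and 0.422% to 0.447% on day 4, ATP5L2 at 0.0189% to 0.0443% of ATP5L on day 30 and 11.2% to 12.5% on day 4, and FTH1P3 at 0.223% to 0.349% of FTH1 on day 30 and 6.35% to 6.85% on day 4. EDARADD, an adaptor of ectodysplasin signalling, is listed here with a transcript 92.4% identical to ENO1 over 52.5% of its length, and stood at 0.00846% to 0.0354% of ENO1 on day 30 and 0.631% to 0.674% on day 4. TUBA1A, an alpha tubulin, had 21.6, 25.3, 25.3 and 14.5 FPKM on day 30 and 382, 454, 373 and 328 on day 4 (log2 ratio -4.11 ± 0.13, adjusted p = 0.00016), which is 3.87% to 6.87% and 37.5% to 38.6% of TUBA1C. In each of these the day 4 percentages lay close together and apart from those of day 30. HSP90AA6P, poor in GC, was lower (0.237, 0, 1.04 and 0 against 3.78, 2.99, 11.4 and 21.8 FPKM, log2 ratio -2.77 ± 0.46, adjusted p = 0.0042) while the gene it resembles, HSP90AA1, was higher. TPI1P2 and UQCRHL, chosen after their values were seen, lay at 0.0120% to 0.0824% of TPI1 and 0.647% to 0.893% of UQCRH on day 30 and at 0.806% to 0.900% and 21.2% to 23.8% on day 4.

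Of the read-through entries, ABHD14A-ACY1 was listed at 0.000000000000000512, 0.00000000000000912, 0.432 and 0.0000000000000165 FPKM on day 30 and at 17.4, 24.6, 24.6 and 12.8 on day 4 (log2 ratio -4.21 ± 0.19, adjusted p = 0.00029), while its parts ABHD14A (32.9 to 40.03 against 30.3 to 53.1) and ACY1 (19.4 to 36.6 against 18.6 to 37.8) were not called. RBM14-RBM4 had 0.594, 3.24, 1.98 and 1.79 on day 30 and 33.1, 32.5, 29.2 and 31.2 on day 4 (log2 ratio -3.57 ± 0.26, adjusted p = 0.00050), and here RBM14 and RBM4, both RNA-binding proteins, were called lower too. NBL1, a secreted BMP antagonist, was the remaining gene at this end, with 14.7, 8.03, 2.40 and 10.5 on day 30 and 77.5, 147, 93.1 and 89.00 on day 4 (log2 ratio -3.53 ± 0.42, adjusted p = 0.0014).

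The 4 pairs gave alike orders of genes but not equal ratios. Between pairs, Spearman's rho of the ratios over 10865 genes was 0.696 (NCD38 with NCD38-β2PIPP) to 0.943 (DMSO with NCD38-β2P4), and 0.608 to 0.902 with the GC trend subtracted. The median ratio was lowest for NCD38-β2PIPP (-0.22), followed by NCD38-β2P4 (-0.05), DMSO (-0.02) and NCD38 (0.29). At least 2-fold higher were 2614, 3906, 2323 and 1489 genes, and 1881, 1966, 1822 and 2081 were lower. The differences lay mostly in the day 4 libraries. On day 4 the NCD38 library was the lowest and the NCD38-β2PIPP library the highest of the 4 in 5415 genes (49.8%), and on day 30 in 898 (8.27%). Among the genes at least 2-fold higher in all pairs the day 4 share was 75.3%, and among those 2-fold lower 7.28%. The median range over the 4 libraries was 0.69 on the log2 scale on day 4 and 0.35 on day 30. Within day 4, a library's deviation from the day's mean had a Spearman's rho with GC content of 0.33, 0.68, -0.50 and -0.73 across genes, against 0.32, -0.05, -0.42 and 0.22 on day 30. With 1 library in each condition, an effect of a compound and a property of a library cannot be told apart.

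Genes whose ratios differed most between pairs followed that order. Of 601 genes with a range of over 2 between the 4 log2 ratios, the NCD38 pair was highest in 587 and the NCD38-β2PIPP pair lowest in 582. DDX3X, an RNA helicase, had 17.4, 25.4, 21.8 and 13.1 FPKM on day 30 and 7.49, 4.28, 17.4 and 30.6 on day 4, and its ratios were 1.12, 2.32, 0.31 and -1.16. EIF3A, the largest subunit of eIF3, had 61.4, 65.4, 65.3 and 35.7 and 8.64, 5.54, 17.9 and 37.6, with ratios of 2.69, 3.34, 1.81 and -0.07. For both, the day 30 values lay closer together than those of day 4, and EIF3A was called higher (adjusted p = 0.027), a call lost without the DMSO, NCD38 or NCD38-β2P4 pair or without the filter on low FPKM. The adaptor gene CRK (0.62, 1.71, -0.26 and -1.67) and TAF13, a subunit of TFIID (0.76, 2.10, 0.33 and -1.26), had the same order of ratios and were not called, although the mean of TAF13 turned from 0.48 to -1.02 after the subtraction. BSCL2, which encodes seipin, was an exception, with 11.8, 6.32, 5.67 and 14.1 FPKM on day 30 and 0.755, 11.5, 1.01 and 1.06 on day 4. Its NCD38 library was the high one on day 4, and its ratio was below 0 in the NCD38 pair only (2.87, -0.77, 1.73 and 2.88), and it was not called, but was called higher after the subtraction (2.32) and without the NCD38 pair.

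Some genes were level throughout. Of 3430 genes with a mean of at least 20 FPKM, 179 had a range under 0.5 on the log2 scale over all 8 libraries. Among the 5 with the smallest range were EIF4A1, the helicase of cap-dependent initiation (852 to 951 FPKM on day 30 and 859.8 to 937 on day 4), TXNL4A, a spliceosomal protein (69.1 to 78.4 and 69.2 to 74.9), TMEM216, a protein of the ciliary transition zone (27.8 to 30.1 and 26.5 to 29.7), and NOP2, a methyltransferase of ribosomal RNA (68.2 to 76.1 and 69.9 to 74.2). The mean ratios of the 5 lay between -0.02 and 0.08 and none was called. After the GC trend was subtracted, NOP2 turned from -0.02 to 0.59 and was called higher, so its constancy holds for FPKM as deposited.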

How the data were processed

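Stranded mRNA libraries were sequenced by the authors from RKO cells, 1 in each of 8 conditions. The authors deposited FPKM values estimated with Cufflinks. For alignment the paper names TopHat, whereas the submitters' processing notes list HISAT2 2.2.1.0 and hg19 without a role. The annotation is not given in the sources used here. FPKM holds no counts, and depth was estimated from the steps between low values.

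From the deposited FPKM, log2(FPKM + 1) was computed for entries with a unique name and a mean FPKM of at least 1. limma 3.58.1 (R 4.3.3; trended prior, treatment as a block, two-sided) was fitted to all 10865 genes, with Benjamini-Hochberg adjustment. On simulated data (10865 genes) 30% of 100 genes changed 2-fold and 71% of 100 changed 4-fold were recovered, with 8 false calls. That simulation changed only 200 genes and drew the noise of each gene independently. In the data 61.9% of the genes were called and the ratios moved with GC content, so these rates do not carry over to this comparison. GC content and length came from GENCODE release 44 on GRCh37, and GC trends were lowess fits (fraction 0.2). Similar transcripts were found with BLAST+ 2.17.0. Sequences were read from the same genome and annotation.

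The genes and lists were chosen with earlier results of these data known. Named were the 10 genes at each end (called, past 2-fold in all pairs, mean FPKM of at least 5, transcript of at least 500 nt), the 5 at each end after the GC trend was subtracted, up to 3 members at each end of each list, the 5 most and the 5 least constant genes, 6 checks of the cell line, and the 4 higher genes richest and the 4 lower genes poorest in GC. From these a part is described, and some members and sequences are not reported here. All table columns were mapped to samples. Pseudocount, filter, scaling, prior, block, GC and length trends, transcript length and each pair were varied.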

Additional observations from a re-analysis of the deposited data

Results flagged for a closer look

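With 4 treatment pairs, 10 of the 169 sets of 4 pair ratios examined (named genes and list medians) had 1 pair far from the others, with a gap to its neighbour above the critical value of Dixon's test at 95%. Chance gives this in about 1 of 20 independent sets, and the sets here are not independent, since list medians rest on named genes among others. No difference between treatments could be tested with 1 library in each condition. The NCD38 pair stood apart in 8 of the 10. It was the most negative for PFKL (-2.20) and FARSA (-1.78), the least negative for EGR1 (-0.52) and for the glycolysis list (median -1.14), and the highest for RPL34 (3.52) and EPCAM (2.47). For KRT18 it was -0.29 while the other pairs lay above 0. The colon epithelium list, which is set by few genes, had KRT18 as its median in that pair, so its flag (-0.29) repeats the same value. The other sets were ZNF496, with -2.49 in the NCD38-β2PIPP pair, and the sterol list, with a median of -0.84 in the DMSO pair.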

How the results depend on the processing

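With a mean FPKM of at least 10 (5210 genes) instead of 1, the genes called higher fell to 1178 and those called lower were 2417, the genes at least 2-fold higher in all pairs were 482, and the median log2 ratio moved to -0.40. With the GC trend subtracted, 577 genes were at least 2-fold higher and 361 at least 2-fold lower in all pairs. Leaving out 1 pair at a time gave 2189 to 3581 genes higher, 2378 to 3963 lower, 1225 to 2048 at least 2-fold higher and 1008 to 1301 at least 2-fold lower in the remaining pairs, and a median of -0.10 to 0.04; the 2048 came without the NCD38-β2PIPP pair. Quantile normalization shifted the median of all genes to -0.14 (3306 higher, 4059 lower). Without the replicate block, 3498 genes were higher and 3779 lower; the libraries of a treatment shared little beyond it, since the correlation of their deviations from the day's mean was 0.074, -0.114, 0.094 and -0.164. The median of the interferon list turned to 0.023 without a filter and to 0.20 with the GC trend subtracted, that of DNA damage repair to -0.47 at a mean FPKM of at least 10 and to -0.20 with the GC trend subtracted. With that trend subtracted RPS9 (0.13), CDX2 (0.35), NOP2 (0.59) and TAF13 (-1.02) also changed sign, and VIM did under quantile normalization (-0.31). The causes were not tested. Of the other values of named genes under an alternative, 1804 kept direction and side of the threshold, 24 gained and 27 lost a call. FPKM carries no counting error, and genes of low FPKM rest on few fragments.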
